A study of Oryctolagus cuniculus with 8 samples.

Results

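Collagens, laminins, integrins, nidogens and perlecan build and grip the matrix under an epithelium, and their genes are described here in limbal cells of the rabbit sorted by dye exclusion. The members are the genes listed once in the table whose symbol has the form of a collagen, laminin or integrin chain, together with NID1, NID2 and HSPG2. This gave 60 of 20922 gene entries: 31 collagen chains, 6 laminin chains, 20 symbols of integrin form, 2 nidogens and perlecan. ITGBL1 matches the integrin form but encodes a secreted protein that is not an integrin chain. Other chains of these families, among them LAMC1, ITGB1, ITGB2, ITGB4, COL18A1, COL6A1, COL6A3, LAMA4 and LAMA5, were not analysed here.

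Side population (SP) cells keep out the DNA dye Hoechst 33342 and look dim in a cell sorter, a property used in the search for stem cells, and the non-side-population (NSP) cells are the rest of the sort. Both were isolated from limbal epithelial cells of New Zealand white rabbits, with no further treatment named in the labels, and an Ion Proton sequencer read the total RNA of 4 samples of each. The question is which of these genes differ between SP and NSP cells. Nothing in the labels says that the samples are separate animals, so the p-values here speak of the spread among these libraries, which may be technical.

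An epithelium rests on a basement membrane, a sheet in which laminin and type IV collagen networks are linked by nidogens and the proteoglycan perlecan. In cornea and skin, hemidesmosomes hold the basal cells to it through integrin alpha-6 beta-4 and collagen XVII, which reach laminin-332, while collagen VII forms the anchoring fibrils beneath. Integrins are receptors of an alpha and a beta chain, and which pairs a cell carries sets what it can bind. Vessels and stroma have their own basement membrane and interstitial collagens, and leukocytes their own integrins.

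The libraries held between 15553295 and 18931836 exon reads in SP and between 20445565 and 23529101 in NSP. The labelled tissue was checked by marker lists, given as summed CPM, the reads of a gene scaled to a common library total. All 9 markers of limbal and corneal epithelium were lower in SP, with sums of 537 to 5950 CPM in SP, against 18400 to 36300 CPM in NSP. All 8 tested endothelial markers were higher in SP, with sums of 1090 to 10600 CPM in SP, against 8.96 to 15.4 CPM in NSP. Of 6 leukocyte markers 5 were higher in SP, all 5 melanocyte markers were, and 3 of 4 Schwann cell markers were. Of 4 tested mural cell markers 1 was higher and 1 lower, and DES had no read in SP. Of 3 tested keratocyte and fibroblast markers 2 were higher. In NSP, LUM and KERA of the keratocyte list and CD8B of the leukocyte list had no read. In bulk RNA of this kind, fewer cells of a type and less RNA per cell cannot be told apart.

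The members took a smaller share of the reads in SP than in NSP. They held 0.221%, 0.299%, 0.393% and 0.581% of exon reads in SP libraries 1 to 4, against 0.919%, 1.223%, 1.256% and 1.026% in NSP libraries 1 to 4. The groups did not overlap. The gene with the most member reads also differed. ITGAE led in SP libraries 1 to 3, with 19.5%, 28.7% and 35.8% of member reads, and HSPG2 led in SP library 4. COL17A1 led in NSP libraries 1, 2 and 4, with 59.2%, 50.8% and 51.2% of member reads, and LAMA3 led in NSP library 3.

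Each gene was tested with limma-voom over all 10012 genes that passed a filter on low counts, and a gene is called higher or lower in SP at a Benjamini-Hochberg adjusted p under 0.05. Of the 60 members 48 were tested. In SP, 19 were higher, 19 were lower and 10 missed the threshold. Of those higher, COL15A1, COL3A1, ITGA4 and ITGA8 passed the filter only through the SP libraries, so their calls add no support. Of all genes tested, 17.6% were higher, 13.3% were lower and 30.8% were called in either direction, against 79.2% of the tested members called. The CPM ranges of SP and NSP did not overlap for 37 of the 48, which is 77.1%, against 32.8% of all genes tested. The median log2 fold change of the tested members was -0.61, against 0.11 for all genes. With upper-quartile factors 17 members were higher and 22 lower, and over all genes the share of calls that were higher was 46.0% in place of 56.9%. Under that scaling the median of all genes shifted by -0.18, and under median-ratio factors by -0.11. Without SP library 3, 12 members were higher of the 44 still tested.

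**Figure D1:**
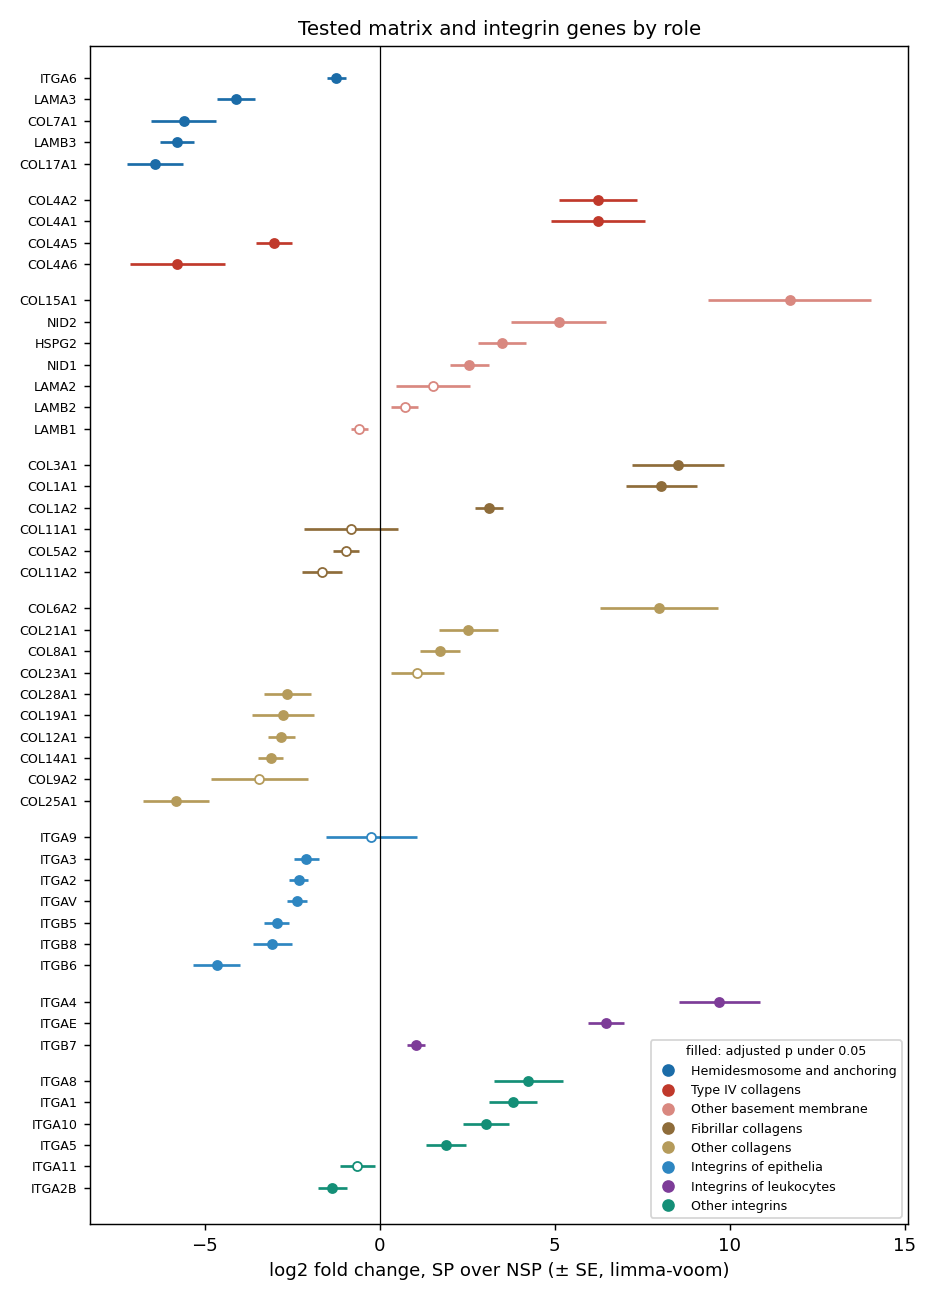
Log2 fold change of SP over NSP (x axis, limma-voom, bars are standard errors) for the 48 tested members, grouped by role, with filled points at an adjusted p under 0.05. The 5 hemidesmosome and anchoring genes lie left of 0, the 3 leukocyte integrins lie right of 0, and type IV collagens fall on both sides, with COL4A1 and COL4A2 right and COL4A5 and COL4A6 left.

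All 5 tested genes of the hemidesmosome and anchoring group were lower in SP, against 13.3% of all genes tested. COL17A1, the collagen that spans the basal membrane of the cell in hemidesmosomes, had 132.5, 33.9, 11.5 and 252.9 CPM in SP libraries 1 to 4, against 5783, 6045, 3238 and 5323 CPM in NSP libraries 1 to 4. Its highest SP library was far below its lowest NSP library, and the log2 fold change was -6.41 ± 0.80 (adjusted p = 0.000386). LAMB3, the beta chain of laminin-332, had 8.63, 9.30, 5.60 and 49.8 CPM in SP, against 599, 749, 600.2 and 645 CPM in NSP. SP library 4 stood well above the other SP libraries, while the NSP libraries lay close together, and the log2 fold change was -5.79 ± 0.49 (adjusted p = 9.36e-05). The fold change of COL17A1 was -5.59 without SP library 3 and -7.22 without SP library 4, and that of LAMB3 was -6.55 without SP library 4.

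LAMA3, the alpha chain of laminin-332, had 116.2, 152, 64.9 and 258.8 CPM in SP, against 1036, 2193, 6168 and 1757 CPM in NSP. NSP library 3 was the highest, and the groups did not overlap (log2 fold change -4.09 ± 0.54, adjusted p = 0.000518). COL7A1, the anchoring fibril collagen, had 4.48, 2.38, 1.17 and 4.44 CPM in SP, against 175.3, 220.3, 41.2 and 183.4 CPM in NSP. Here NSP library 3 was the lowest of its group, and the log2 fold change was -5.60 ± 0.93 (adjusted p = 0.00161). ITGA6, the alpha chain of the hemidesmosome integrin, showed the smallest difference of the group. It had 46.1, 60.9, 96.4 and 77.4 CPM in SP, against 154, 125.6, 195.6 and 169.1 CPM in NSP (log2 fold change -1.24 ± 0.27, adjusted p = 0.00644).

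The chains of laminin-332 did not keep the same ratio. The log2 ratio of LAMA3 to LAMB3 reads was 3.75, 4.03, 3.53 and 2.38 in SP libraries 1 to 4, against 0.79, 1.55, 3.36 and 1.45 in NSP libraries 1 to 4. NSP library 3 fell inside the SP range, so the groups overlapped, and the difference was not tested.

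**Figure D2:**
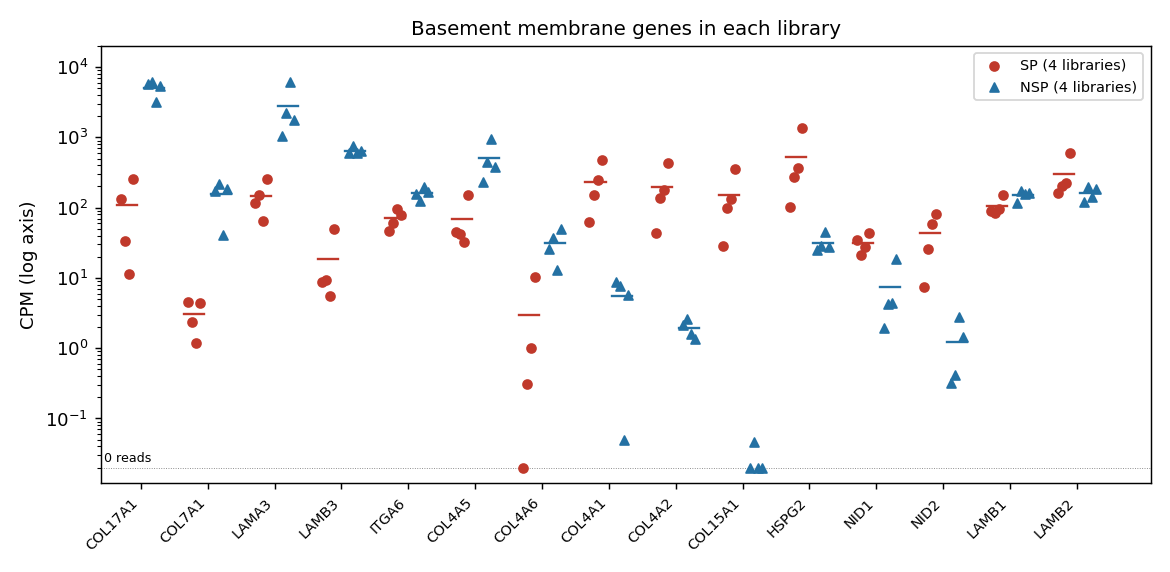
CPM on a log axis of 15 basement membrane genes in each of the 4 SP libraries (red circles) and 4 NSP libraries (blue triangles), with group means as bars and libraries without a read on the dotted line. COL17A1 reached 252.9 CPM at most in SP and was at least 3238 CPM in NSP, while COL15A1 was at least 28.2 CPM in SP, against at most 0.0464 CPM in NSP.

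The type IV collagen chains split in pairs: of 4 tested, COL4A1 and COL4A2 were higher in SP, and COL4A5 and COL4A6 were lower. COL4A1 and COL4A2 form the network found in nearly all basement membranes, vessels included. COL4A1 had 63.3, 151.8, 249.8 and 475 CPM in SP, against 8.86, 7.70, 0.0501 and 5.78 CPM in NSP. COL4A2 had 44.0, 137.3, 178.1 and 427.7 CPM in SP, against 2.17, 2.64, 1.60 and 1.36 CPM in NSP. Both were highest in SP library 4 and lowest in SP library 1, with no overlap between SP and NSP. The log2 fold changes were 6.24 ± 1.35 for COL4A1 (adjusted p = 0.00624) and 6.25 ± 1.11 for COL4A2 (adjusted p = 0.00237). COL4A1 was 5.63 without SP library 4 and 4.63 without NSP library 3, which held a single COL4A1 read, and COL4A2 was 5.59 without SP library 4.

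COL4A5 and COL4A6 are paired chains of epithelial basement membranes. COL4A5 had 45.8, 42.9, 32.0 and 152.8 CPM in SP, against 232.3, 450.6, 944 and 380.5 CPM in NSP. COL4A6 had 0, 0.310, 1.01 and 10.4 CPM in SP, against 25.8, 36.9, 12.8 and 50.3 CPM in NSP. Again SP library 4 was the highest SP library, and SP and NSP did not overlap for either gene. The log2 fold changes were -3.02 ± 0.52 for COL4A5 (adjusted p = 0.00195) and -5.78 ± 1.36 for COL4A6 (adjusted p = 0.00963). COL4A5 was -3.63 without SP library 4, and COL4A6 was -4.37 without SP library 1 and -7.18 without SP library 4. COL4A4, a chain of the specialised network of kidney and eye, was not tested, with 71 reads over SP and 24 over NSP.

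Of the other 7 tested basement membrane genes, 4 were higher in SP and none was lower, against 17.6% and 13.3% of all genes tested. COL15A1, among the 4, passed the filter only through the SP libraries, so its call adds no support. COL15A1, a collagen of the basement membrane zone of capillaries and muscle, had 28.2, 98.5, 131.5 and 351.2 CPM in SP. In NSP its only read was in library 2, so the ratio of SP to NSP was 11800 (2120 to 466000, exact 95% counting interval). That interval covers counting error only, and the fitted log2 fold change of 11.72 ± 2.33 (adjusted p = 0.00405) depends on the count offset. HSPG2, which encodes perlecan, had 103, 270.8, 364 and 1380 CPM in SP, against 24.7, 28.1, 45.5 and 27.5 CPM in NSP. The SP libraries spread widely, with library 4 the highest, and none reached down to NSP (log2 fold change 3.50 ± 0.68, adjusted p = 0.00364). Without SP library 4 the value of HSPG2 was 2.67. COL15A1 fell out of the test when any SP library was left out, since it then passed the filter in 3 libraries only.

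The nidogens, linkers between laminin and type IV collagen, were both higher in SP. NID1 had 34.2, 21.0, 27.5 and 43.6 CPM in SP, against 1.94, 4.22, 4.46 and 18.7 CPM in NSP. NID2 had 7.39, 26.1, 59.2 and 81.5 CPM in SP, against 0.316, 0.418, 2.75 and 1.46 CPM in NSP. NSP library 4 came close to the lowest SP library for NID1, and for neither gene did the groups overlap. The log2 fold changes were 2.57 ± 0.56 for NID1 (adjusted p = 0.00668) and 5.12 ± 1.35 for NID2 (adjusted p = 0.0164). NID1 was 1.97 without NSP library 1 and 3.18 without NSP library 4, and it missed the threshold with sample quality weights, at 1.85. NID2 was 5.83 without SP library 1, and without NSP library 1 it was 4.52 and missed the threshold.

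The tested laminin chains outside laminin-332 missed the threshold with all libraries and trimmed-mean factors. LAMB1, the beta chain of many laminins, averaged 105 ± 32.9 CPM in SP, against 152.5 ± 23.4 CPM in NSP (SD, n = 4 each, log2 fold change -0.58 ± 0.25, adjusted p = 0.106). LAMB1 was called lower with upper-quartile factors, with sample quality weights, without SP library 4 and without NSP library 1. LAMB2, the beta chain of vessel and neuromuscular laminins, had 163.8, 202.5, 224.1 and 598.3 CPM in SP, against 121.8, 196.4, 140.2 and 183 CPM in NSP. SP library 4 stood apart, and SP library 1 lay inside the NSP range (log2 fold change 0.72 ± 0.38, adjusted p = 0.18). LAMA2, the alpha chain of muscle and nerve laminin, averaged 2.31 ± 1.63 CPM in SP, against 1.17 ± 1.57 CPM in NSP (adjusted p = 0.302), and it was called higher with sample quality weights, at 2.66. LAMA1 had 13 reads over SP and 23 over NSP and was not tested.

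Among 6 tested fibrillar collagens 3 were higher in SP and none was lower, against 17.6% and 13.3% of all genes tested. COL3A1, among the 3, passed the filter only through the SP libraries, so its call adds no support. COL1A1, the alpha-1 chain of type I collagen, the main fibril of stroma, had 44.3, 55.8, 85.2 and 100.6 CPM in SP, against 0.904, 0.0464, 0.501 and 0.0972 CPM in NSP. Its partner chain COL1A2 had 44.8, 55.5, 95.7 and 50.2 CPM in SP, against 8.81, 6.91, 3.91 and 8.36 CPM in NSP. Neither gene overlapped, and the log2 fold changes were 8.05 ± 1.02 for COL1A1 (adjusted p = 0.000412) and 3.13 ± 0.40 for COL1A2 (adjusted p = 0.000431). The log2 ratio of COL1A1 to COL1A2 reads was -0.02, 0.01, -0.17 and 1.00 in SP, against -3.25, -6.64, -2.90 and -6.11 in NSP. The NSP ratios rest on 20, 1, 10 and 2 reads of COL1A1 in NSP libraries 1 to 4, and the difference was not tested. COL3A1, the type III collagen of vessels and soft stroma, had 2.86, 12.7, 21.2 and 7.29 CPM in SP, and no read in NSP. Set against 3 reads over the NSP group, COL3A1 was at least 316-fold higher in SP (adjusted p = 0.00118). COL1A1 was 7.42 without NSP library 2, and COL3A1 fell out of the test when any SP library was left out.

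COL5A2, a regulator of fibril width in the corneal stroma, averaged 21.4 ± 9.69 CPM in SP, against 39.9 ± 13.1 CPM in NSP and was not called (log2 fold change -0.96 ± 0.37, adjusted p = 0.0772). It was called lower with upper-quartile factors, with sample quality weights, without SP library 4 and without NSP library 3. COL11A2, a minor chain of cartilage fibrils, had 2.05, 1.86, 1.76 and 3.06 CPM in SP, against 5.06, 10.5, 3.36 and 10.5 CPM in NSP. Its groups did not overlap, yet it missed the threshold (log2 fold change -1.64 ± 0.58, adjusted p = 0.0541). COL11A2 was called lower with median-ratio or upper-quartile factors, limma-trend or sample quality weights, and without NSP library 3. COL11A1 stood at 0 to 2.37 CPM in SP, against 0.278 to 1.36 CPM in NSP.

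Of 10 tested collagens of other kinds, 3 were higher and 5 lower in SP, against 17.6% and 13.3% of all genes tested. COL6A2, a chain of the beaded filaments around cells, had 97.3, 35.6, 109.1 and 29.2 CPM in SP, against 0, 1.67, 0 and 3.01 CPM in NSP. The groups did not overlap, and the log2 fold change was 7.98 ± 1.69 (adjusted p = 0.00565). It was 6.71, 8.93, 6.95 and 9.21 without NSP libraries 1 to 4 in turn. COL8A1, a short-chain collagen of vessels and of the membrane under the corneal endothelium, was 8.47, 24.8, 43.9 and 40.6 CPM in SP, against 7.41, 6.50, 6.86 and 8.89 CPM in NSP. SP library 1 lay inside the NSP range, and the gene was called at a log2 fold change of 1.72 ± 0.56 (adjusted p = 0.0401). COL21A1, a collagen of vessel walls, was 2.75, 10.3, 17.1 and 27.1 CPM in SP, against 1.67, 1.49, 2.15 and 1.89 CPM in NSP (log2 fold change 2.53 ± 0.84, adjusted p = 0.0435). COL8A1 and COL21A1 both missed the threshold when any library other than SP library 1 was left out. They also missed it with upper-quartile factors, and COL21A1 with median-ratio factors and after thinning to equal depth. COL21A1 was 3.19 without SP library 1.

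Of the 5 lower collagens of other kinds, COL12A1, COL14A1 and COL19A1 belong to the fibril-associated class. So do COL21A1, which was higher, and COL9A2, which was not called. COL12A1 had 9.60, 3.52, 10.9 and 5.97 CPM in SP, against 38.5, 58.5, 54.6 and 44.6 CPM in NSP (log2 fold change -2.81 ± 0.39, adjusted p = 0.000616). COL14A1 had 12.4, 9.92, 6.03 and 11.5 CPM in SP, against 56.3, 82.2, 86.3 and 116.5 CPM in NSP (log2 fold change -3.11 ± 0.36, adjusted p = 0.000323). The lowest NSP library was above every SP library for each gene. COL25A1, a transmembrane collagen known from neurons and developing muscle, had 1.02, 0, 0.534 and 1.18 CPM in SP, against 18.0, 21.99, 20.2 and 19.6 CPM in NSP. The log2 fold change of COL25A1 was -5.83 ± 0.94 (adjusted p = 0.00144), with -4.50 without SP library 2 and -6.50 without SP library 4. COL28A1 and COL19A1 were low in both groups. COL28A1 averaged 0.849 ± 0.332 CPM in SP, against 5.59 ± 2.41 CPM in NSP (log2 fold change -2.64 ± 0.67, adjusted p = 0.0137). COL19A1 averaged 0.475 ± 0.431 CPM in SP, against 2.90 ± 1.75 CPM in NSP (log2 fold change -2.75 ± 0.88, adjusted p = 0.037). COL28A1 missed the threshold without SP library 3. COL19A1 missed it with sample quality weights and when any library other than NSP library 1 was left out.

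COL9A2 and COL23A1 were not called with all libraries. COL9A2 had reads in SP library 4 only, at 2.57 CPM, against 0.601 to 2.14 CPM in NSP (log2 fold change -3.44 ± 1.38, adjusted p = 0.0849). COL9A2 was called lower without SP library 4, at -5.25, and with sample quality weights, at -4.81, while limma-trend gave -0.85 and no call. The mean CPM of COL9A2 was 0.642 in SP and 1.03 in NSP. COL23A1 averaged 1.79 ± 1.16 CPM in SP, against 0.753 ± 0.322 CPM in NSP (adjusted p = 0.305).

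Of 17 tested integrin chains 7 were higher and 8 lower in SP, so 88.2% were called, against 30.8% of all genes tested. They are set out by role, and the roles were chosen with earlier results of these data known. Of 7 tested chains of epithelia besides ITGA6, 6 were lower in SP, and all 3 tested leukocyte chains were higher. Over all genes tested, 13.3% were lower and 17.6% were higher. ITGA4, 1 of the 3 leukocyte chains, and ITGA8, another of the 7 higher integrins, passed the filter only through the SP libraries. Their calls were close to fixed and add no support. ITGB6, which with alpha-V makes an epithelial receptor that activates TGF-beta, had 20.0, 17.2, 1.07 and 11.5 CPM in SP, against 178.8, 210.1, 210.5 and 210.9 CPM in NSP. SP library 3 was the lowest by far, and the log2 fold change was -4.65 ± 0.66 (adjusted p = 0.000734), or -3.65 without SP library 3. ITGB5, another partner of alpha-V, had 35.8, 18.9, 26.7 and 68.8 CPM in SP, against 268.9, 307.8, 192.6 and 244.1 CPM in NSP (log2 fold change -2.94 ± 0.35, adjusted p = 0.000357). ITGAV itself, the alpha-V chain, had 49.3, 47.9, 22.9 and 28.3 CPM in SP, against 198.6, 207.5, 147.9 and 179.4 CPM in NSP (log2 fold change -2.36 ± 0.29, adjusted p = 0.000374). For these 3 genes every SP library was below every NSP library.

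ITGB8, a further partner of alpha-V, was also lower, with 26.5, 21.0, 3.58 and 5.97 CPM in SP, against 119.2, 115.8, 59.4 and 79.0 CPM in NSP (log2 fold change -3.07 ± 0.56, adjusted p = 0.00267). ITGA3, the alpha chain of a laminin receptor, had 23.9, 52.9, 37.5 and 101 CPM in SP, against 199.4, 199.8, 197.8 and 189.2 CPM in NSP (log2 fold change -2.10 ± 0.36, adjusted p = 0.00195). ITGA2, the alpha chain of a collagen receptor, had 34.0, 54.1, 36.1 and 22.6 CPM in SP, against 189, 203.2, 140.3 and 180.6 CPM in NSP (log2 fold change -2.31 ± 0.28, adjusted p = 0.000362). None of these overlapped. ITGA9 was near the filter in both groups, with 77 reads over SP and 57 over NSP, and was not called (adjusted p = 0.914).

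ITGAE, the CD103 chain that pairs with beta-7 and binds E-cadherin on T cells within epithelia, had the highest mean level per exon length of all members in SP, with libraries that overlapped those of ITGA5, the next in order. It had 378.4, 833.3, 1425 and 516.5 CPM in SP, against 9.17, 9.09, 4.91 and 8.79 CPM in NSP. SP library 3 was the highest and the groups lay far apart (log2 fold change 6.47 ± 0.52, adjusted p = 8.77e-05). Its partner chain ITGB7 had 101.1, 116.1, 154.2 and 146.4 CPM in SP, against 76.5, 68.6, 41.2 and 67.7 CPM in NSP. ITGB7 thus differed less, with a log2 fold change of 1.04 ± 0.26 (adjusted p = 0.0122), and was well above 0 in every NSP library. ITGA4, whose receptors guide leukocytes into tissue, had 26.7, 27.6, 57.2 and 17.3 CPM in SP. ITGA4 had 2 reads over NSP, so the ratio of SP to NSP was 1390 (385 to 11500, exact 95% counting interval). The fitted log2 fold change of ITGA4 was 9.71 ± 1.16 (adjusted p = 0.000345) and 10.30 without NSP library 4, and the gene fell out of the test when any SP library was left out.

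Of 6 tested integrin chains of vessels, mesenchyme and platelets, 4 were higher and 1 was lower in SP. The shares of all genes tested were 17.6% and 13.3%. ITGA8, among the 4, passed the filter only through the SP libraries, so its call adds no support. ITGA1, the alpha chain of a collagen receptor, had 9.06, 10.1, 18.0 and 8.96 CPM in SP, against 0.226, 0.603, 1.35 and 1.94 CPM in NSP (log2 fold change 3.81 ± 0.69, adjusted p = 0.00262). ITGA10, another collagen receptor chain, had 10.1, 6.15, 10.9 and 24.7 CPM in SP, against 0.994, 2.32, 1.40 and 0.923 CPM in NSP (log2 fold change 3.04 ± 0.65, adjusted p = 0.00597). Neither overlapped, and ITGA1 was 3.10 without NSP library 1. ITGA5, the alpha chain of the fibronectin receptor, had 73.6, 161.1, 207.5 and 660.7 CPM in SP, against 37.6, 71.8, 77.8 and 40.6 CPM in NSP. SP library 1 lay inside the NSP range, and SP library 4 was the highest by a wide margin. The log2 fold change of ITGA5 was 1.90 ± 0.58 (adjusted p = 0.0307) and 1.17 without SP library 4, and the call was lost without SP library 3 or NSP library 1, 2 or 4.

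ITGA8, known from smooth muscle and the kidney mesangium, was low throughout, at 0.809, 1.45, 1.49 and 1.39 CPM in SP, against 0.181, 0, 0 and 0.146 CPM in NSP (log2 fold change 4.25 ± 0.98, adjusted p = 0.00879). It fell out of the test when any SP library was left out. ITGA2B, the platelet chain, was lower in SP, at 2.32, 5.17, 2.78 and 5.35 CPM, against 9.26, 9.60, 8.41 and 9.67 CPM in NSP. The groups did not overlap, and the log2 fold change was -1.35 ± 0.41 (adjusted p = 0.0297), with the call lost without SP library 1 or 3 or NSP library 2 or 4. ITGA11 averaged 3.40 ± 1.20 CPM in SP, against 5.20 ± 1.94 CPM in NSP and was not called (adjusted p = 0.362).

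**Figure D3:**
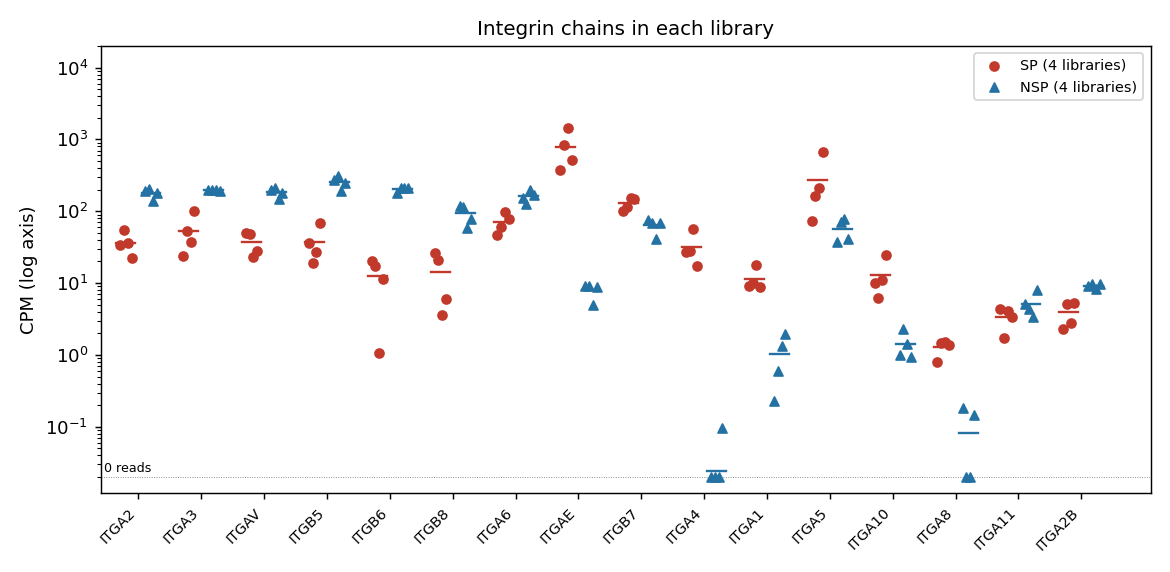
CPM on a log axis of 16 integrin chains in each of the 4 SP libraries (red circles) and 4 NSP libraries (blue triangles), with group means as bars and libraries without a read on the dotted line. ITGB6 was 1.07 to 20.0 CPM in SP, against 178.8 to 210.9 CPM in NSP, and ITGAE was 378.4 to 1425 CPM in SP, against 4.91 to 9.17 CPM in NSP.

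Members that failed the filter were mostly at or near 0. COL10A1 had no read in any library, and COL24A1 had 3 reads in SP and none in NSP. COL6A5 had no read in SP and 7 in NSP, and COL6A6 had 6 in SP and 10 in NSP. COL22A1 had 22 in SP and 33 in NSP. COL13A1 had 25 reads in SP and none in NSP, which made it at least 9.88-fold higher in SP against 3 reads over NSP. Of those reads 21 were in SP library 4 and 4 in SP library 2. COL9A1 had no read in SP and 29 in NSP, which made it at least 8.15-fold lower in SP, with 26 of those reads in NSP library 2 and 3 in NSP library 4. ITGA7 had 146 reads in SP and 42 in NSP, with 7.60 CPM in SP library 1 alone and at most 0.258 CPM in the other SP libraries. ITGB3, the partner of ITGA2B on platelets, had 159 reads in SP and 15 in NSP. ITGBL1 had 137 reads in SP and 2 in NSP, which gives 81.2 for SP over NSP (22.1 to 678, exact 95% counting interval).

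Levels of different genes were set side by side as CPM per kilobase of exon. In SP the integrin order began with ITGAE at 192.6 ± 113.6, ITGA5 at 61.7 ± 58.8 and ITGB7 at 42.0 ± 8.1 CPM per kilobase (SD, n = 4), and the libraries of neighbours in this order overlapped. ITGB7 was above the next chain, ITGA6 at 13.6 ± 4.2, in every SP library. In NSP the order began with ITGB5 at 77.2 ± 14.7 and ITGA3 at 48.5 ± 1.2 CPM per kilobase, each above the next chain in every library, then ITGB6 at 39.7 and ITGAV at 39.5, which overlapped. Among collagens, COL4A1 at 37.2, COL4A2 at 33.2 and COL15A1 at 30.1 CPM per kilobase led in SP, with overlap between neighbours. COL17A1 led in NSP at 862.5 ± 215.8 CPM per kilobase, followed by COL4A5 at 79.1 ± 48.6 and COL7A1 at 16.2, and neither of the first pair overlapped the next. In SP, COL17A1 was at 18.2 CPM per kilobase.

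**Figure D4:**
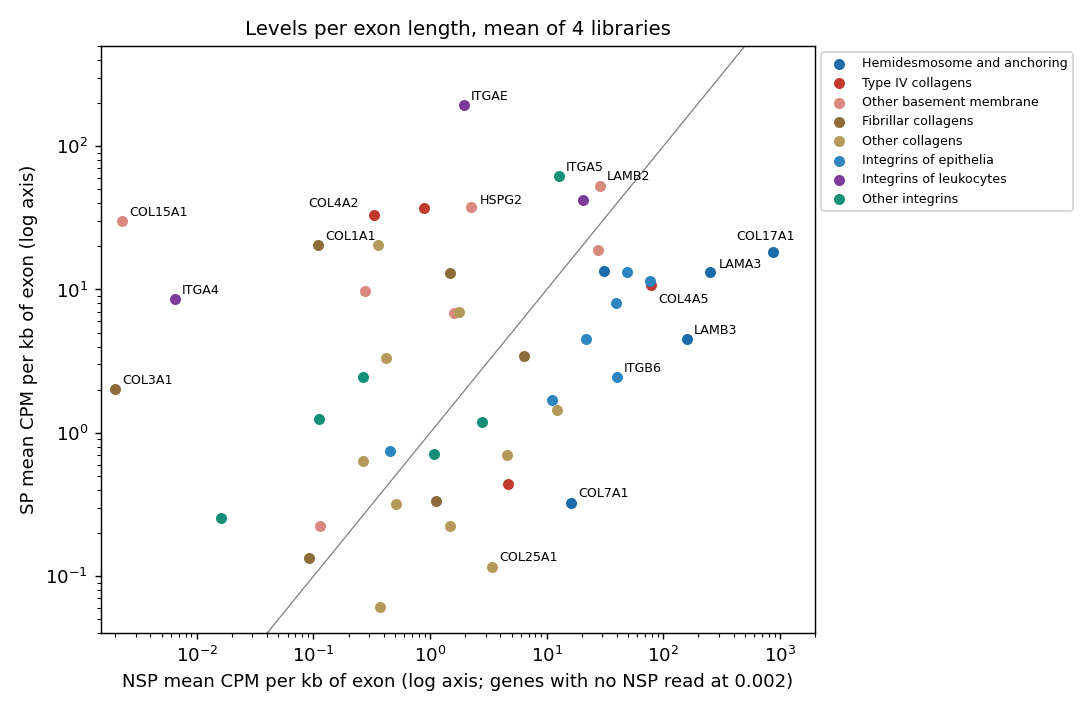
Mean CPM per kilobase of exon over 4 libraries in SP (y axis) and in NSP (x axis), both on log axes, for the 48 tested members, coloured by role, with the line of equal level. ITGAE is highest in SP at 192.6 and COL17A1 is highest in NSP at 862.5, and COL3A1, which had no NSP read, is drawn at the left edge.

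The SP libraries differed among themselves in a pattern shared by many members. Of the 19 genes higher in SP, 10 were highest in SP library 4 and 9 in SP library 3. COL4A1, COL4A2, NID2, HSPG2, COL15A1, COL1A1, COL21A1 and ITGA5, 8 of the 19, ran in the order of libraries 4, 3, 2 and 1, high to low. The summed endothelial markers had the same order, with 1090, 3810, 4270 and 10600 CPM in SP libraries 1 to 4, against 8.96 to 15.4 CPM in NSP. COL4A6, which was lower in SP, had this order too, and the share of all genes with it is not given here. PECAM1, VWF, TEK and ESAM each ran in that order, and VWF alone was at 7524 CPM in SP library 4. CDH5, TIE1 and KDR ran in the order of libraries 4, 2, 3 and 1, and EMCN was highest in SP library 3. ITGA4 and ITGA1 had the order of the summed leukocyte markers, which were 1650, 1830, 3000 and 933 CPM in SP libraries 1 to 4, against 202 to 576 CPM in NSP. All leukocyte markers were highest in SP library 3, but CD8B, CORO1A and CD53 did not have the whole order. ITGAE was also highest where those markers were highest, in SP library 3. COL6A2 had the order of the summed keratocyte and fibroblast markers, which were 84.3 to 189 CPM in SP, against 44.8 to 76.4 CPM in NSP. DCN and LUM, the markers of that list called higher in SP, ran otherwise, in the order of libraries 3, 2, 1 and 4. FBN1, which was not called, was at 20.6 CPM in SP library 1 and 3.67 CPM in SP library 2. No member called in either direction had the order of the summed melanocyte or Schwann cell markers, which was libraries 1, 3, 4 and 2. With 4 libraries these orders are a description, and the part of other cell types in these differences was not tested.

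**Figure D5:**
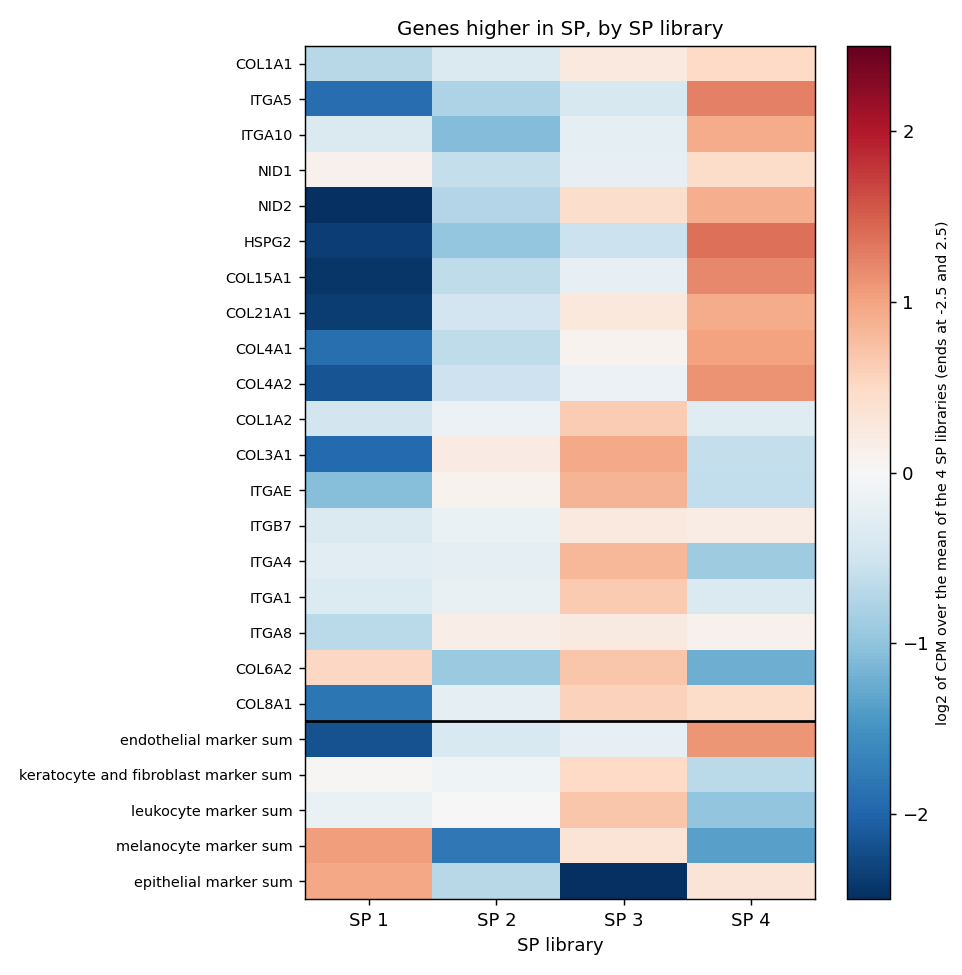
Log2 of CPM over the mean of the 4 SP libraries (colour, red above and blue below the mean) for the 19 members higher in SP, with the summed markers of 5 cell types under the black line. Of the 19 genes, 10 are highest in SP library 4, where the endothelial sum is 10600 CPM. The other 9 are highest in SP library 3, where the leukocyte sum is 3000 CPM and the keratocyte and fibroblast sum is 189 CPM. The melanocyte sum is 7460 CPM in SP library 3 and 12200 CPM in SP library 1.

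For the genes lower in SP, the summed epithelial markers were 5950, 1890, 537 and 3800 CPM in SP libraries 1 to 4, against 36300, 27400, 18400 and 29600 CPM in NSP libraries 1 to 4. Of the 19 genes lower in SP, 10 were lowest in SP library 3, 5 in library 1, 3 in library 2 and 1 in library 4, while 9 were highest in library 4 and 6 in library 1. COL7A1 and COL14A1, 2 of the 19, had the whole order of the epithelial sum. KRT12, KRT3 and TP63 each ran in that order. CDH1, EPCAM and PAX6 were highest in SP library 2, and KRT15, DSG3 and GJB2 in SP library 4. COL28A1, ITGAV, ITGB6 and ITGB8 had the order of the mural cell sum. That sum was 23.7, 22.4, 16.0 and 20.8 CPM in SP libraries 1 to 4, against 17.5 to 68.2 CPM in NSP. MYH11 alone was at 18.49, 16.44, 6.67 and 10.35 CPM in SP. PDGFRB was highest in SP library 4 and ACTA2 in SP library 3. Whether the epithelial share of the sort accounts for the lower matrix genes was not tested.

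Genes that process or meet these proteins were called in both directions, as were genes at large, of which 30.8% were called. Of 29 listed genes of collagen folding, secretion and cross-linking 14 were tested, with 5 higher and 3 lower in SP. PPIB, a prolyl isomerase of collagen folding, averaged 534.5 ± 119 CPM in SP, against 246.2 ± 60.1 CPM in NSP (log2 fold change 1.13 ± 0.26, adjusted p = 0.00843). LOXL3, a cross-linking oxidase, was higher too (3.24 ± 0.62, adjusted p = 0.00324), as was ADAMTS14, a procollagen protease (3.42 ± 0.62, adjusted p = 0.00261). SERPINH1, a collagen chaperone, was called at 2.08 ± 0.63, and CRTAP, a partner of prolyl hydroxylase, at 0.88 ± 0.28. Without SP library 2 or 3 or NSP library 1, 3 or 4 SERPINH1 was not called, and it was 1.44 without SP library 4. CRTAP was not called without SP library 3 or 4 or any NSP library, nor with median-ratio or upper-quartile factors. P4HA2, a subunit of prolyl 4-hydroxylase, averaged 46.6 ± 16.1 CPM in SP, against 176.3 ± 35.4 CPM in NSP (-1.97 ± 0.30, adjusted p = 0.00111). PLOD2, a lysyl hydroxylase, was lower at -3.33 ± 0.77 (-4.05 without SP library 1), and P4HA3 was called at -3.88 ± 1.33. P4HA3 was -5.17 without SP library 1 and -2.58 without SP library 3, and it missed the threshold with sample quality weights, after thinning and when any library other than SP library 1 was left out.

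Of 18 listed partners of the epithelial basement membrane 9 were tested, with 2 higher and 1 lower in SP, a share near that of all genes. FRAS1, a protein that anchors epithelium to the dermis in mice, averaged 0.503 ± 0.755 CPM in SP, against 34.1 ± 5.49 CPM in NSP (log2 fold change -7.82 ± 1.11, adjusted p = 0.000734). It was -7.10, -7.08 and -9.11 without SP libraries 1, 3 and 4 in turn. FBLN2, a fibulin of basement membranes and vessels, averaged 160.5 ± 104.5 CPM in SP, against 8.78 ± 2.56 CPM in NSP (3.92 ± 0.67, adjusted p = 0.00195). SGCE, a sarcoglycan, averaged 46.6 ± 17.7 CPM in SP, against 0.544 ± 0.969 CPM in NSP (8.46 ± 1.38, adjusted p = 0.0015), with 7.51, 7.73 and 9.80 without NSP libraries 1, 3 and 4 in turn.

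Of 29 listed adaptors on the inner face of integrins 18 were tested, with 6 higher and 4 lower in SP. The shares of all genes tested were 17.6% and 13.3%. TNS4, a tensin of epithelia, averaged 12.7 ± 8.10 CPM in SP, against 324.9 ± 23.8 CPM in NSP (log2 fold change -4.94 ± 0.38, adjusted p = 7.96e-05). FERMT1, the kindlin of epithelia, averaged 6.55 ± 3.10 CPM in SP, against 129 ± 13.2 CPM in NSP (-4.46 ± 0.36). TLN2, a talin, was lower at -2.48 ± 0.30, and VCL, vinculin, at -1.12 ± 0.27. Higher in SP were LIMS2, a partner of integrin-linked kinase, at 6.91 ± 1.62, ACTN1, an actin cross-linker, at 2.08 ± 0.41, RSU1 at 1.52 ± 0.22 and the kinase PTK2B at 1.11 ± 0.24. LIMS2 was 7.53 without SP library 1 and 6.23 without SP library 4. TLN1 was called at 0.97 ± 0.27 and LIMS1 at 0.86 ± 0.24, and both lost the call with upper-quartile factors. TLN1 also lost it without SP library 3 or 4 or NSP library 1, 2 or 3, and LIMS1 without SP library 3 or NSP library 1, 2 or 4.

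Of 13 listed genes of the interstitial matrix 6 were tested, with 3 higher and 1 lower in SP. Among all genes tested, 17.6% were higher and 13.3% were lower. DCN, the proteoglycan decorin, averaged 111.9 ± 43.4 CPM in SP, against 38.8 ± 6.09 CPM in NSP (log2 fold change 1.46 ± 0.32, adjusted p = 0.00701). LUM, lumican of the corneal stroma, averaged 6.35 ± 4.00 CPM in SP with no read in NSP. It passed the filter only through the SP libraries and left the test when any of them was left out. The call of LUM, counted among the 3, thus adds no support. VCAN, versican, was called at 1.77 ± 0.52, but not without SP library 3 or NSP library 1, 2 or 4. TGFBI, a matrix protein abundant in the cornea, averaged 448.3 ± 272.9 CPM in SP, against 5341 ± 606.2 CPM in NSP (-3.80 ± 0.44, adjusted p = 0.000313).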

How the data were processed

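The deposited file is a single text table, laid out by the authors as touching fields 8 characters wide in 6 stacked blocks, with 20922 gene entries. Field names are truncated, while aligner, build and gene models are not stated: they were not given in the sources used here. For each library, 1 field was used, which holds unscaled whole exon reads. Columns name SP or NSP and no sample, so libraries are numbered in column order as names only. The other 143 per-library fields were not used, and the exon length field was used for levels per kilobase. Names were usable for 10891 entries. No coordinates or sequences are given.

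Reads were scaled with TMM factors computed here (trims of 30% and 5%). Genes needed 0.508 CPM (equal to 10 reads at the median depth) in 4 libraries and a total of 15 reads, leaving 10012. The plan named a count test first and limma-voom where the reads cannot be listed as a column of counts, which is the case here, so limma-voom was used (limma 3.58.1, R 4.3.3, offset of 0.5 reads, group only, two-sided, Benjamini-Hochberg over all genes tested). The reads themselves are whole numbers that a count test could take. Folds against a group without reads use a floor of 3 reads over the group. Ratios with 1 to 3 reads have exact 95% intervals, and floors and intervals cover counting error only. Partner ratios use a pseudocount of 0.5 reads.

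Alternatives were scaling by upper-quartile or median-ratio factors, a filter of 1 read only or of 10 reads in 4 libraries, limma-trend, sample quality weights, thinning to 15553295 reads, and each of 8 libraries left out. The procedure was tested on simulated data. Named genes are the members by role and the called genes of the pathway lists. Members, roles and lists were chosen with earlier results of these data known. Python 3.11.15 was used with SciPy 1.17.1, pandas 2.3.3, NumPy 2.4.6 and, for plots, matplotlib 3.10.9.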

Additional observations from a re-analysis of the deposited data

Results flagged for a closer look

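In 96 groups of 4 libraries (48 tested members in SP and in NSP), 15 had a library set far from the other 3 by Dixon's ratio on CPM. That ratio marks about 1 in 20 groups of normally distributed values by chance, a rate that was not checked for skewed CPM with zeros. For COL9A2 in SP and for COL15A1 and ITGA4 in NSP the other 3 libraries were at 0, so any read there set the ratio to 1. Of these, 7 were in SP and 8 in NSP. In SP library 4, LAMB3 was at 49.8 CPM with 5.6 to 9.3 in the other SP libraries, COL4A5 at 153 CPM with 32.0 to 45.8, COL4A6 at 10.4 CPM with 0 to 1.01, LAMB2 at 598 CPM with 164 to 224, and COL9A2 at 2.57 CPM with 0 in the others. ITGA1 was at 18.0 CPM in SP library 3, with 8.96 to 10.1 in the other SP libraries. ITGA8 was lowest in SP library 1 at 0.809 CPM, with 1.39 to 1.49 in the others.

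In NSP library 3, LAMA2 was highest at 3.5 CPM with 0.186 to 0.633 in the other NSP libraries, HSPG2 highest at 45.5 CPM with 24.7 to 28.1, and ITGAE lowest at 4.91 CPM with 8.79 to 9.17. In NSP library 4, NID1 was highest at 18.7 CPM with 1.94 to 4.46 in the others, COL9A2 highest at 2.14 CPM with 0.601 to 0.696, and ITGA4 highest at 0.0972 CPM with 0 in the others. COL15A1 was at 0.0464 CPM in NSP library 2, its single NSP read. ITGB6 was lowest in NSP library 1 at 179 CPM, with 210 to 211 in the others.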

How the results depend on the processing

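Of the 38 called members, 26 were tested and called under all 15 alternatives named with the processing, and none changed direction. COL15A1, COL3A1, ITGA4 and ITGA8 were called wherever tested but left the test without an SP library, since the filter asks for 4 libraries. They passed that filter only through the SP libraries, where they were high. Their calls were thus close to fixed by the filter and add no support. They are counted among the members higher in SP and among those without overlap. The other 8 (NID1, NID2, COL8A1, COL19A1, COL21A1, COL28A1, ITGA5, ITGA2B) missed the threshold in at least 1. Of the 10 tested members that were not called, 5 (LAMA2, LAMB1, COL5A2, COL11A2, COL9A2) were called in at least 1. With 1 library left out, 12 to 17 members were higher and 16 to 21 lower, and over all genes 1101 to 1651 were higher and 908 to 1759 lower, against 1758 and 1330 with all libraries. Without SP library 3, 12 members and 1101 genes were higher, and without NSP library 1, 1167 genes were. After these values were seen, the same fits were repeated with a filter of 3 libraries. They gave 16 to 20 members higher and 17 to 22 lower, and 1202 to 1997 genes higher and 975 to 1847 lower. In those, 32 of the 38 were called throughout. Uncalled genes turned sign: COL11A1 with limma-trend (0.0258), and ITGA9 with limma-trend (0.31), quality weights (0.23), without SP library 1 (1.24, or 1.25 with a filter of 3 libraries; its range with 1 library left out was -0.90 to 1.25) and without NSP library 3 with that filter (0.13). The cause was not tested. Limma-trend, which adds 0.5 CPM, gave smaller changes for genes near 0 in a group: COL15A1 7.71, COL3A1 4.22, ITGA4 5.83, ITGA8 1.61, COL6A2 5.63, COL1A1 6.38, COL4A1 5.51, NID2 4.43, ITGA1 3.06, COL4A6 -4.15, COL25A1 -4.25, COL19A1 -1.77, FRAS1 -5.36, SGCE 5.77, LIMS2 5.87, LUM 3.46, ADAMTS14 2.62, PLOD2 -2.68 and P4HA3 -2.22. Sample quality weights called 2343 genes higher and 1586 lower, with 19 and 22 members, and gave COL17A1 -7.02, COL4A1 5.02, COL4A6 -6.66, COL6A2 6.38, COL25A1 -6.95 and SGCE 6.83. Per exon length the log2 ratio of LAMA3 to LAMB3 was 1.98 in SP and 0.34 in NSP, since LAMA3 is longer. With 1 library left out, the mean log2 ratio of LAMA3 to LAMB3 was 3.22 to 3.77 in SP and 1.26 to 2.12 in NSP, that of COL4A1 to COL4A2 was 0.26 to 0.39 in SP and -0.29 to 1.87 in NSP, where library 3 held 1 COL4A1 read, that of COL1A1 to COL1A2 was -0.06 to 0.33 in SP and -5.33 to -4.09 in NSP, and that of NID1 to NID2 was -0.77 to 0.33 in SP and 2.16 to 3.15 in NSP.

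No paired analysis was possible because the columns carry no replicate numbers. The count tests of edgeR and DESeq2 were not run, nor were the ratios COL6A1/COL6A2, ITGA6/ITGB4 and ITGAL/ITGB2, whose partners were not analysed here. Genes with under 15 reads in all were left out by the filter. With a filter of 1 read 59 of the 60 members were tested, with 20 higher and 19 lower.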
